A study of Mus musculus with 6 samples.

Results

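Glycolysis, lactate handling, the creatine and phosphocreatine buffer and glycogen form the cytosolic side of energy supply in the brain, and 33 of their genes were followed in striata of PGC-1alpha knockout mice. The genes were listed by name, and each was represented by the probe set with a single gene symbol that had the highest mean log2(signal + 16) over 6 arrays, where signal is the deposited MAS5 value of a probe set and 16 was added to damp the noise of dim ones. Of the 33 genes, 31 had such a probe set, out of 18194 genes with one on the array, and the other two, Gpi1 and Eno1, have no signal given here. Gapdh was represented only by Affymetrix control probe sets, which stayed outside the test across the array, and Slc16a3 lay below the filter on dim signals, so 29 of the 31 genes were tested.

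The study compared PGC-1a-/- mice (KO) with PGC-1a+/+ wild-type littermates (WT), both bred from heterozygous PGC-1a+/- founders, with 3 female mice of 6 months in each group, 1 array per mouse and no treatment. The deletion is constitutive and the labels name no other allele. RNA came from striatal tissue, a mixture of neurons, glia and vessel cells, in which fewer cells of a type and less RNA per cell cannot be told apart. The label of KO 3 names cytoplasmic RNA while the other 5 name total RNA, so results that turn on KO 3 are also given without it.

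Glycolysis splits glucose into pyruvate in the cytosol, and lactate dehydrogenase and the monocarboxylate transporters let cells convert, export and take up lactate, an exchange proposed to run from glia to neurons. Creatine kinases shuttle high-energy phosphate from mitochondria to sites of use, and glycogen in the brain is held mostly by astrocytes. PGC-1alpha is a transcriptional coactivator that works with estrogen-related receptors and other factors on genes of mitochondrial oxidation, and in muscle it is known to raise Ldhb.

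The KO label was checked on Ppargc1a, the gene of PGC-1alpha, whose 5 probe sets all fell, with every KO mouse under every WT mouse. The steepest of them stood at 81.9 ± 11.7 in KO against 357 ± 47.3 in WT (SD, n = 3), a difference of -1.93 on the log2 scale (limma adjusted p = 3e-05). Across the array 127 of 27022 probe sets passed an adjusted p of 0.05 in limma, 79 lower and 48 higher in KO. RNA integrity, read as log2 of 3' over 5' control signal, overlapped between the groups, from -0.46 to -0.44 in KO and -0.49 to -0.43 in WT for GAPDH and from 1.04 to 1.17 and 1.03 to 1.24 for beta-actin. Markers fixed for neurons (10 genes), medium spiny neurons (8 measured) and astrocytes (12) overlapped between the groups in summed signal, which for medium spiny neurons ran from 25657 to 28084 in KO and from 23796 to 28400 in WT. The summed markers of mural cells, red blood cells, cortical neurons and skeletal muscle overlapped too. Of 7 cortical neuron markers 6 were lower in KO (median -0.20). Their sum was 618, 535 and 963 in KO 1, 2 and 3 and ran from 609 to 959 in WT. Of 8 skeletal muscle markers 5 were at or below the filter signal of 26.8 on average. Their sum came mostly from Pvalb, at 476, 748 and 444 in KO against 1362, 652 and 701 in WT (difference -0.64, limma adjusted p = 0.41). The overlap of that sum thus says little of muscle.

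To show the control regions of the members on which the results turn, the 250 bases before the start site are given for the 5 genes with an unadjusted p under 0.05, from RefSeq on GRCm38.p6. They are Slc2a1 (chr4:119108495-119108744, plus strand), Ldhb (chr6:142507958-142508207, minus strand), Slc16a1 (chr3:104638414-104638663, plus strand), both listed starts of Gpd2 (chr2:57237428-57237677 and chr2:57238132-57238381, plus strand) and Gys1 (chr7:45434589-45434838, plus strand). Capitals mark matches on either strand to ACGTG or GCGTG, the cores of the hypoxia response element, of which the first start of Gpd2 and Gys1 have none.
Slc2a1: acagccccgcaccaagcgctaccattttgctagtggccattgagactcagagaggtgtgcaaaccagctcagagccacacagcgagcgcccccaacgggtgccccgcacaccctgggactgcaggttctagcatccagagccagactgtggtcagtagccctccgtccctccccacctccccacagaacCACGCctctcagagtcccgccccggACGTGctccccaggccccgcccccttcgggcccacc
Ldhb: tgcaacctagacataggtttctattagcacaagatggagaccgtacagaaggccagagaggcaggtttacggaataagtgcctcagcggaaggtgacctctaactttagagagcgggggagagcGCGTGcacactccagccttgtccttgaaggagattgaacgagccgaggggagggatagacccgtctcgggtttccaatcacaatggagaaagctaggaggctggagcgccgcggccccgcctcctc
Slc16a1: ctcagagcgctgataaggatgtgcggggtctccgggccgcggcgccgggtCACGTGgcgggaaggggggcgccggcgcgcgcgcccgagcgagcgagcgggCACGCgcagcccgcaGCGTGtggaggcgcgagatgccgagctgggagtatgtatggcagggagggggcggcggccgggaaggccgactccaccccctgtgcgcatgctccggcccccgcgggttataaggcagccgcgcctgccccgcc
Gpd2, first start: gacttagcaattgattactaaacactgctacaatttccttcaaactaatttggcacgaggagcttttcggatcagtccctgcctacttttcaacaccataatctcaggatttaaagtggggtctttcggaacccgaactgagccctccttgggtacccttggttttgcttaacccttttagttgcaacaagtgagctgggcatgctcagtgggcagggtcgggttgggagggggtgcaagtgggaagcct
Gpd2, second start: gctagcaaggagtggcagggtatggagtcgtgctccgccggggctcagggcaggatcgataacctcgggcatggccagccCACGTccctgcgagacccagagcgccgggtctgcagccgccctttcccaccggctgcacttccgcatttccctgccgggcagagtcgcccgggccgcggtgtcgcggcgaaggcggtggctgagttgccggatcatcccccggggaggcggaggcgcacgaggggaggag
Gys1: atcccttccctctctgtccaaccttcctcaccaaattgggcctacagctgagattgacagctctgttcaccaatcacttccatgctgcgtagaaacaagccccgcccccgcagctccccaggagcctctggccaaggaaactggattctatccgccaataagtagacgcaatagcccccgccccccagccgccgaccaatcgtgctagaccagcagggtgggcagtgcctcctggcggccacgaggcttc

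Of the 33 genes, 29 had a promoter in the table, Eno1 among them, with 45 start sites between them. ACGTG occurred in 20 of these 45 windows (44.4%) and in 16.6% of all 32851 promoter windows of 250 bases. GCGTG occurred in 21 of the 45 (46.7%) and in 28.2% of all. A gene with more than 1 start adds more than 1 window. By gene, ACGTG was found in 16 of 29 and GCGTG in 16 of 29, and no share by gene over all promoters was computed. Slc16a1 carried the palindrome CACGTG, which counts as an ACGTG match on both strands, and GCGTG on each strand. The estrogen-related receptor element TNAAGGTCA was in 0 of the 45 windows, against 1.14% of all, and the NRF1 element in 0, against 0.782%. At shares this low, 0 of 45 cannot be told from the background. The cyclic AMP response element TGACGTCA was in 1 of the 45 windows (2.22%), of the gene Ldha, against 1.55% of all windows. These matches describe letters in short windows and say nothing of binding in these mice.

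None of the 29 tested genes passed the test, in either direction. Over all probe sets tested the share that passed was 0.47%, with 0.292% lower and 0.178% higher, so that no pass among 29 is close to this background. At an unadjusted p under 0.05 in limma, 4 members were lower (Ldhb, Slc16a1, Gpd2 and Gys1) and 1 was higher (Slc2a1), where the background was 9.17% in all, 5.06% lower and 4.11% higher. Values of KO and WT mice did not overlap for 9 of the 31 genes, 8 with KO below and 1 with KO above. Over all probe sets tested 14.4% were separate, 7.88% with KO below and 6.52% with KO above. Both lower counts include Gys1, whose KO mean of 14.7 lay under the filter signal of 26.8 that it cleared through the WT mice. Differences were mostly small and mostly below 0: 22 of 31 were lower in KO and 9 higher, and the middle of the 31 was -0.08 (median log2 difference), while 51.1% of all probe sets tested were lower. With arrays centred on their median 20 were lower and the median was -0.04. The median over all probe sets tested was 0.00 to 2 decimals, with quartiles of -0.13 and 0.11.

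**Figure D1:**
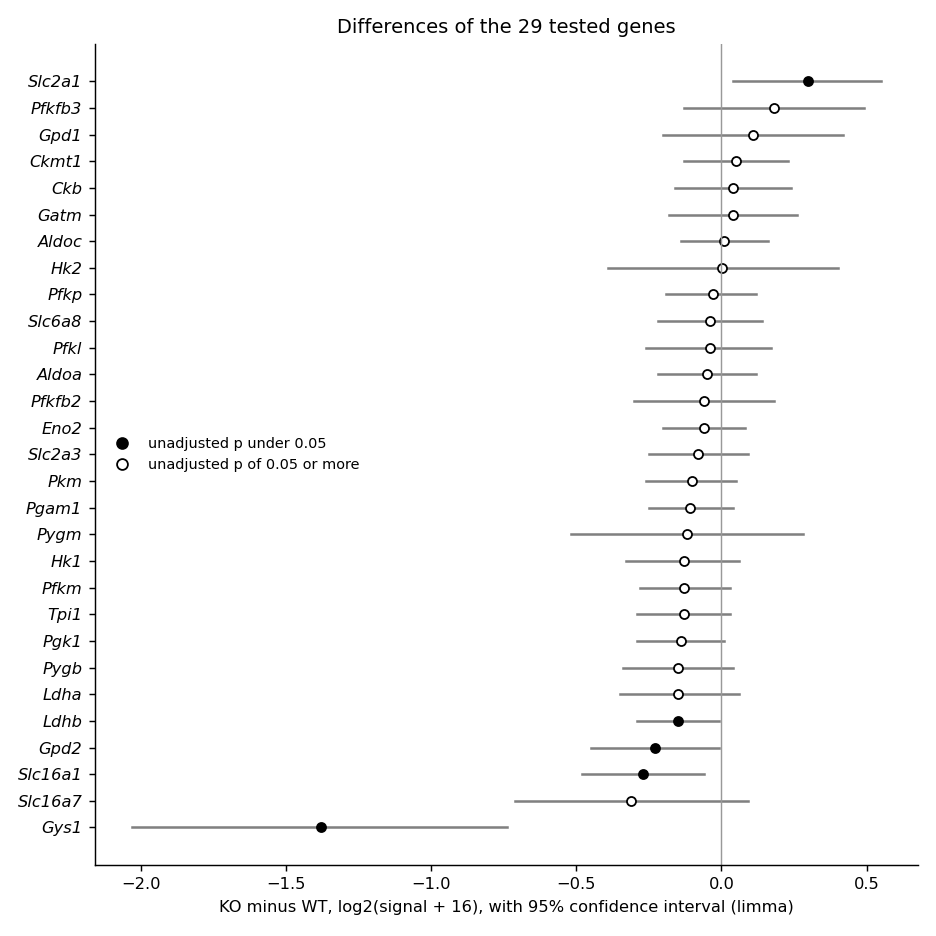
KO minus WT differences of log2(signal + 16) for the 29 tested genes (points), with 95% confidence intervals from limma (lines); filled points have an unadjusted p under 0.05. Gys1, at -1.38, stands far to the left with the widest interval, Slc2a1 is the highest at 0.30, and most of the rest lie a little below 0.

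Glucose transport held the only member, Slc2a1, whose KO mice all lay above the WT mice. It encodes the glucose transporter of the blood-brain barrier and astrocytes. Its signals were 887, 1273 and 953 in KO mice 1, 2 and 3 and 881, 761 and 859 in WT mice. All 3 KO mice lay above the WT mice, but KO 1 by a small margin, and KO 2 stood far above the rest. The difference was 0.30 on the log2 scale (SE 0.12, 95% interval 0.04 to 0.55, adjusted p = 0.45), and without KO 2 it was 0.14. The dimmer Slc2a1 probe sets gave 0.26 and 0.19, each highest in KO 2, with overlapping groups.

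Other cell types that use Slc2a1 were read from the same arrays. Of 9 endothelial and barrier markers 6 were lower in KO and 3 higher, with a median difference of -0.07, and their summed signal ran from 1277 to 1654 in KO and from 1406 to 1582 in WT. Choroid plexus epithelium also expresses Slc2a1. Its 8 markers had summed signals of 2959 to 3955 in KO and 1533 to 2472 in WT, nearly all from Ttr, and 7 of 8 were higher in KO, 6 of the 8 being at or below the filter signal of 26.8 on average. Ttr, the thyroid hormone carrier made by this epithelium, stood at 3660, 2597 and 3062 in KO against 1264, 1543 and 2193 in WT and rose by 0.91 on the log2 scale (limma adjusted p = 0.035). Clic6, the only other choroid plexus marker above the filter, overlapped, at 206, 215 and 285 in KO against 216, 203 and 194 in WT (difference 0.18, adjusted p = 0.73). Among the dim markers Aqp1 and Slc4a5 had all KO mice above all WT mice (differences 0.65 and 0.48). Kl, Folr1, Otx2 and Kcne2, also dim, overlapped. The part of choroid plexus in the Slc2a1 difference was not tested.

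Slc2a3, the high-affinity glucose transporter of neurons, overlapped between groups, at 1388 ± 97.8 in KO against 1467 ± 76.5 in WT (SD, n = 3; a difference of -0.08, 95% interval -0.25 to 0.09). Its dimmer probe sets gave 0.06, -0.05 and 0.08, and without KO 3 the brightest gave -0.14. The change of Slc2a3 relative to Slc2a1 was -0.38 on the log2 scale, the largest among the 11 isoform pairs measured, with values of -0.23, -0.74 and -0.16 in KO mice and -0.17, 0.16 and 0.0049 in WT mice relative to the WT mean. The groups overlapped through KO 3 and WT 1 (exact permutation p = 0.2, adjusted p = 1 over the 11 pairs). Without KO 3 the groups did not overlap and the change was -0.49. Without KO 2 it was -0.20, and with the mean of each gene's probe sets -0.24.

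**Figure D2:**
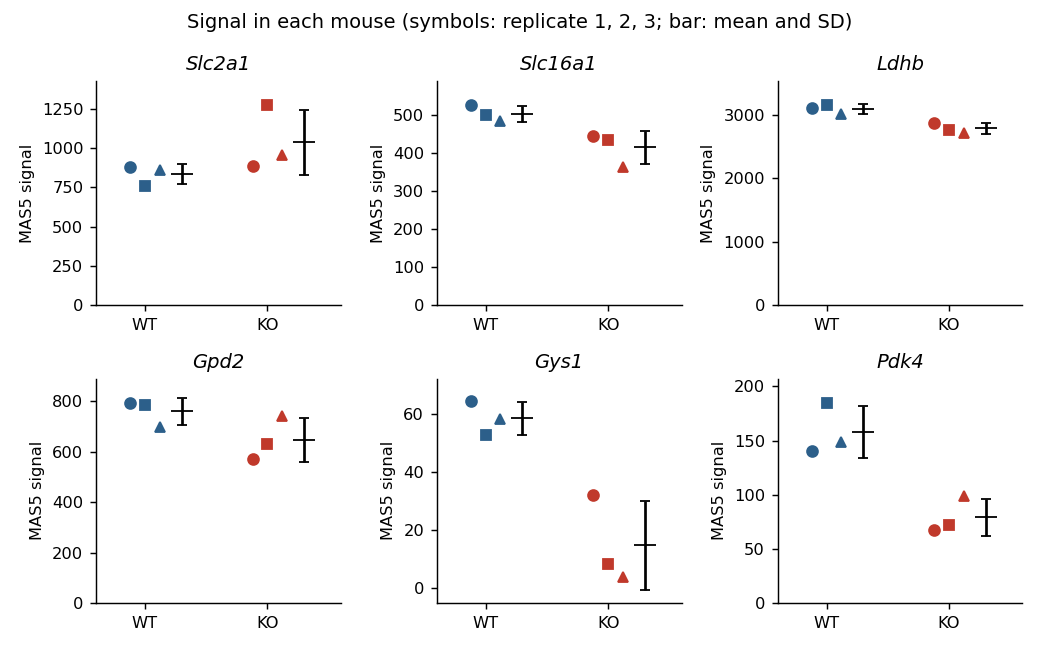
MAS5 signal of 6 genes in each mouse (circle, square and triangle are replicates 1, 2 and 3), with the mean and SD of each group as a bar. KO mice lay above WT for Slc2a1 and below it for Slc16a1, Ldhb, Gys1 and Pdk4, while KO 3 reached into the WT range for Gpd2.

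Among the enzymes of the entry phase, which spend ATP on glucose up to fructose bisphosphate, 5 of 7 were lower and 2 higher, with a median of -0.04, and none had an unadjusted p under 0.05. Hk1, the main hexokinase of brain, stood at 837 ± 81.5 in KO against 919 ± 71.6 in WT (SD, n = 3; a difference of -0.13, 95% interval -0.33 to 0.06). Without KO 3 the Hk1 difference was -0.21. Hk2, the insulin-inducible hexokinase, was dim and even, at 56.3 ± 6.31 and 56.7 ± 11.0. Phosphofructokinase, the committed step of glycolysis, is built from muscle, platelet and liver type subunits. The muscle type, Pfkm, read 1258, 1154 and 1187 in KO and 1272, 1382 and 1279 in WT, so that KO mice lay just below WT mice (difference -0.13, 95% interval -0.28 to 0.03, adjusted p = 0.66).

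The platelet type subunit, Pfkp, differed by -0.03 and the liver type, Pfkl, by -0.04, both with overlapping groups. A dim Pfkp probe set pointed the other way, at 109, 124 and 116 in KO against 84.6, 89.2 and 97.0 in WT (difference 0.32, adjusted p = 0.49), and so did a dim Pfkl probe set (0.30), so the sign of these subunits depends on the probe set. Pfkfb3 and Pfkfb2 encode enzymes that make and break the sugar phosphate activating phosphofructokinase. Pfkfb3 read 142, 184 and 134 in KO and 137, 143 and 118 in WT (difference 0.18, 95% interval -0.13 to 0.49), and again KO 2 was the highest of all mice. Without KO 2 the Pfkfb3 difference was 0.06. Pfkfb2 differed by -0.06, and its dimmer probe sets ran from -0.24 to 0.10.

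The later steps, from aldolase to pyruvate kinase, are grouped as payoff in the plots. Aldolase and triose phosphate isomerase, which split and convert the sugar, still belong to the preparatory steps, and recovery of NADH and ATP begins at Gapdh. Of the 8 measured genes of this group 7 were lower and 1 was higher, with a median of -0.10, and in none did the unadjusted p fall under 0.05 among the 7 tested. These are bright probe sets with narrow intervals, which for the 7 tested genes ran no lower than -0.29 and no higher than 0.16 on the log2 scale. Pgk1, which makes the first ATP of glycolysis, read 2355, 2539 and 2531 in KO and 2908, 2704 and 2574 in WT (difference -0.14, 95% interval -0.29 to 0.01, adjusted p = 0.60). Pgam1, the phosphoglycerate mutase, read 1856, 1876 and 1795 in KO and 2100, 1942 and 1920 in WT (difference -0.11, adjusted p = 0.69). For both genes the KO mice lay below every WT mouse by a small margin.

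Triose phosphate isomerase, Tpi1, was lower in all 3 of its probe sets, by -0.13, -0.17 and -0.07, and the second of them had separate groups. Its leading probe set read 2682, 2795 and 2806 in KO and 3170, 3172 and 2739 in WT, and WT 3 lay among the KO mice. Pyruvate kinase, Pkm, differed by -0.10 and the neuronal enolase, Eno2, by -0.06, both with overlapping groups. Gapdh, often used as a reference gene, stood at 9420 ± 493 in KO against 10127 ± 503 in WT by its brightest control probe set (SD, n = 3; exact permutation p = 0.2). Its 3 control probe sets each gave a difference of -0.10, with WT 3 inside the KO range.

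Aldolase gave the smallest differences among these later steps. Aldoa, the broad isoform, read 6352 ± 265 in KO and 6590 ± 634 in WT (difference -0.05), and its dimmer probe sets ran from -0.15 to 0.02. Aldoc, the isoform enriched in astrocytes, read 6400 ± 490 and 6352 ± 231 (difference 0.0089, 95% interval -0.14 to 0.16). The change of Aldoc relative to Aldoa was 0.06 (exact permutation p = 0.7), so no shift between the astrocyte and the broad isoform was detectable with 3 mice a group. Astrocyte markers as a list were also even, with 5 of 12 lower and 7 higher and a median difference of 0.03. Single markers were not all level. S100b read 888, 873 and 765 in KO against 1184, 1056 and 1035 in WT (difference -0.37, limma adjusted p = 0.11). Slc4a4 was separate too, with KO below WT (difference -0.15, limma adjusted p = 0.60).

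**Figure D3:**
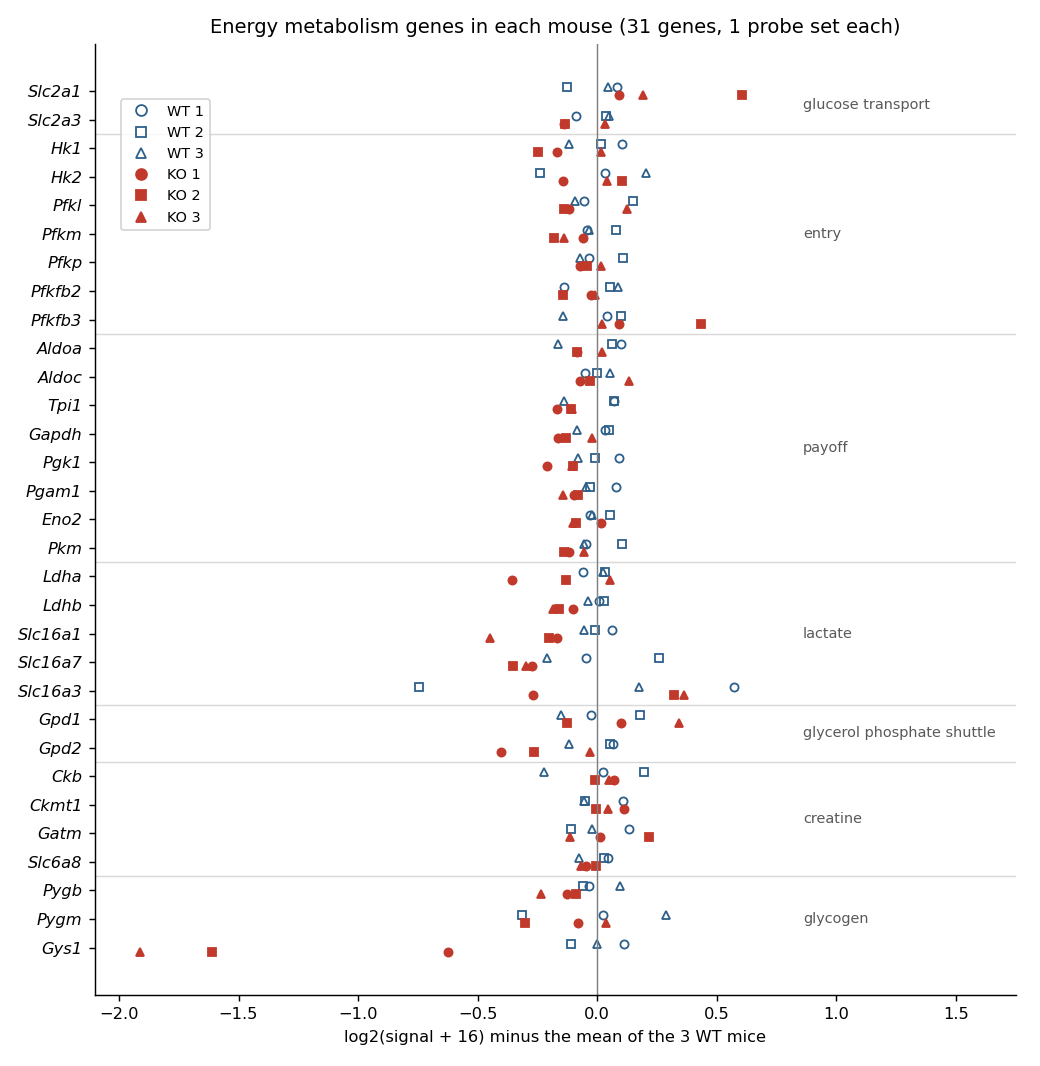
Each gene's log2(signal + 16) in each mouse minus the mean of the 3 WT mice, for all 31 measured genes grouped by role; open blue symbols are WT and filled red symbols KO. Red symbols lie mostly left of 0 in the payoff and lactate rows, the creatine rows are mixed, and the dim Slc16a3 is the most scattered among WT mice.

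The lactate genes had the lowest median of the roles with more than 3 genes, at -0.15 over 5 genes and -0.21 over the 4 tested, all 4 of which were lower in KO. Ldhb, the lactate dehydrogenase subunit that prevails in heart and in neurons, read 2878, 2767 and 2716 in KO and 3110, 3154 and 3006 in WT. Every KO mouse lay below every WT mouse, and the difference was -0.15 (SE 0.063, 95% interval -0.29 to -0.01, adjusted p = 0.48). The other Ldhb probe sets gave -0.20, -0.21 and -0.14, and of the 4 only the one at -0.21 had overlapping groups. With the mean of its probe sets the Ldhb difference was -0.18 (adjusted p = 0.38), and over all alternatives it ran from -0.18 to -0.10 without passing.

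Ldha, the subunit that prevails in muscle and in astrocytes, had the same difference, -0.15, with far wider spread in KO, and it was -0.04 without KO 1 and -0.24 without KO 3. KO mice stood at 1110, 1301 and 1480 and WT mice at 1368, 1461 and 1452, so that KO 1 was the lowest and KO 3 the highest of all 6 mice. Relative to Ldha, Ldhb changed by -0.0028, with 0.26, -0.03 and -0.24 in the KO mice (exact permutation p = 1). The ratio of the lactate dehydrogenase subunits thus varied more among KO mice than between the group means.

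Slc16a1 encodes the monocarboxylate transporter MCT1, which carries lactate and ketone bodies across endothelium and into and out of glia, oligodendrocytes included. KO mice stood at 445, 435 and 364 and WT mice at 526, 499 and 483, without overlap, and KO 3 was the lowest. The difference was -0.27 (SE 0.10, 95% interval -0.48 to -0.06, adjusted p = 0.37), or -0.19 without KO 3. A second Slc16a1 probe set, at signals of 1.2 to 2.9, was too dim to test, and averaging it in gave -0.14. Oligodendrocyte markers moved in the same direction: 8 of 9 were lower in KO with a median difference of -0.19, and their summed signal ran from 25326 to 27048 in KO and from 25991 to 31442 in WT. Mag, a myelin adhesion protein, stood at 509, 561 and 495 in the knockouts against 812, 657 and 661 in the wild types. No marker among the 9 passed, and their part in the Slc16a1 difference was not tested.

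Slc16a7 encodes MCT2, the high-affinity transporter of neurons, and was dim. It read 46.7, 43.2 and 45.6 in KO and 57.2, 74.4 and 49.4 in WT, without overlap but with WT 3 close to the KO mice (difference -0.31, 95% interval -0.71 to 0.09, adjusted p = 0.67). Without WT 2, the highest mouse, or at an offset of 64 the Slc16a7 difference was -0.18. Relative to Slc16a1 its change was -0.03, so the neuronal and the glial transporter were not separated (exact permutation p = 0.9). Slc16a3, the export transporter MCT4 of astrocytes, lay below the filter, at 11.1, 24.8 and 26 in KO and 32.5, 3.5 and 20.8 in WT, and no difference can be read at this signal.

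The glycerol phosphate shuttle passes electrons from cytosolic NADH to the respiratory chain. Gpd2, its mitochondrial enzyme, read 571, 630 and 744 in KO and 795, 788 and 700 in WT (difference -0.23, SE 0.10, 95% interval -0.45 to -0.01, adjusted p = 0.50). KO 3 lay inside the WT range, and without it the difference was -0.33 (adjusted p = 0.30). The dimmer Gpd2 probe sets gave -0.05, -0.18 and, untested, 0.20, and with the mean of all its probe sets Gpd2 differed by -0.07. Gpd1, the cytosolic partner, read 182, 153 and 218 in KO and 165, 193 and 150 in WT (difference 0.11), while its dimmer probe sets gave -0.13, -0.28 and -0.26.

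Gpd2 relative to Gpd1 was the only isoform pair of 11 whose groups did not overlap. Set against the mean of WT mice, its values were -0.50, -0.14 and -0.37 in the knockouts and 0.09, -0.13 and 0.04 in the wild types, with KO 2 and WT 2 almost level. The change was -0.34 (exact permutation p = 0.1, the smallest that 3 against 3 allows, adjusted p = 1 over the 11 pairs). Over all probe sets tested, which are single signals and not pairs, 14.4% had separate groups. Averaged over each gene's probe sets the change was 0.08, so its sign depends on which probe sets are used.

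Creatine genes were level between the groups. Of 4 genes 1 was lower and 3 were higher, all within -0.04 to 0.05 on the log2 scale, and all groups overlapped. Ckb, the cytosolic brain creatine kinase, stood at 6083 ± 173 in KO against 5970 ± 858 in WT (SD, n = 3; 95% interval of the difference -0.16 to 0.24), with the wide WT spread made by WT 2 at 6795 and WT 3 at 5082. Ckmt1, the mitochondrial creatine kinase, read 645 ± 26.5 and 622 ± 41.8 (95% interval -0.13 to 0.23), and its second probe set gave 0.06. Gatm, the first enzyme of creatine synthesis, differed by 0.04 and Slc6a8, the creatine transporter, by -0.04. The intervals of these 4 genes lay between -0.22 and 0.26, which leaves room for changes inside those bounds.

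Glycogen genes were all lower, 3 of 3, and Gys1 had the largest difference of the whole set. Gys1 encodes the glycogen synthase of muscle and brain. Its probe set read 32.1, 8.3 and 3.7 in KO and 64.3, 52.8 and 58.1 in WT, so that all KO mice lay well below all WT mice. The difference was -1.38 (SE 0.30, 95% interval -2.03 to -0.74), with an unadjusted p of 0.00053 and an adjusted p of 0.085 in limma. It did not pass with all 6 arrays and passed without KO 1 (-1.76, adjusted p = 0.0092), the KO mouse nearest to WT. With any other single mouse left out Gys1 did not pass, at a limma adjusted p from 0.19 to 0.27. Without KO 3, its lowest mouse, the difference was -1.12.

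The Gys1 signal is dim, and the KO mean of 14.7 lies under the filter signal of 26.8, which the probe set cleared through the WT mice. Its size therefore follows the offset, with -2.39 at an offset of 1 and -0.65 at an offset of 64 (adjusted p = 0.16 and 0.054). A second Gys1 probe set, at 6.4 to 25.5 in every mouse, was below the filter and gave 0.17, so the difference rests on 1 probe set. Pygb, the brain glycogen phosphorylase that releases glucose units, read 472, 484 and 436 in KO and 504, 495 and 553 in WT, without overlap (difference -0.15, 95% interval -0.34 to 0.04, adjusted p = 0.66). Pygm, the muscle phosphorylase also found in astrocytes, overlapped (-0.12, 95% interval -0.52 to 0.28).

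**Figure D4:**
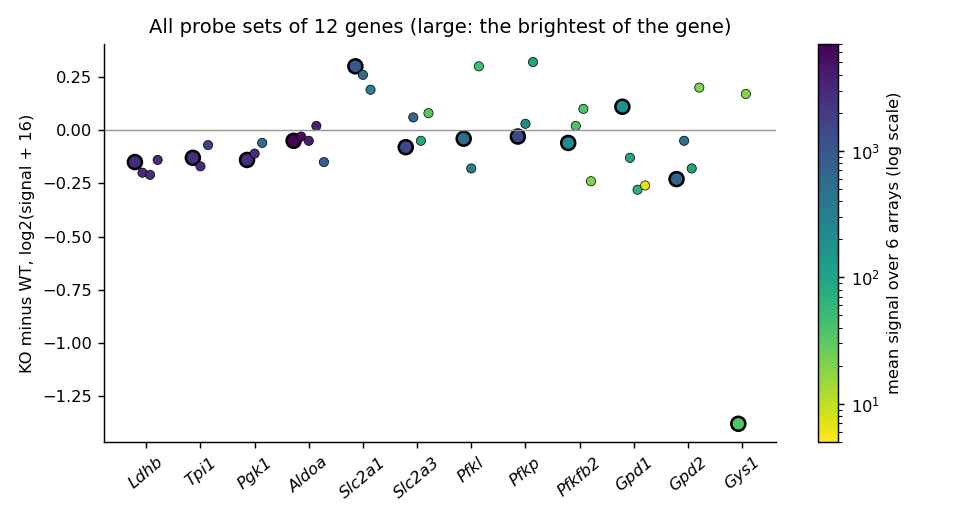
KO minus WT differences of log2(signal + 16) for every probe set of 12 genes with more than 1 (points), coloured by mean signal on a log scale; the large point is the brightest of the gene. All points of Ldhb, Tpi1 and Pgk1 lie below 0 and all of Slc2a1 above it. Aldoa, Slc2a3, Pfkl, Pfkp, Pfkfb2, Gpd1, Gpd2 and Gys1 have points on both sides.

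Agreement between probe sets of a gene was checked because each array carries several for 19 of the 31 genes. Leaving Gapdh aside, 36 further probe sets belonged to members, of which 31 were tested. Of those 31, 18 were lower in KO and 13 higher, 21 had the sign of the chosen probe set, and none passed the test. Ldhb (4 of 4 lower), Tpi1 (3 of 3 lower), Pgk1 (3 of 3 lower) and Slc2a1 (3 of 3 higher) kept one sign throughout. Further probe sets not given above were at -0.02 for Hk1, 0.03 for Pfkfb3, 0.04 for Aldoc, -0.09 for Slc6a8, -0.18 for a brighter one of Pfkl and 0.03 for a brighter one of Pfkp. At an unadjusted p under 0.05 there were 4 among the 31, in 2 probe sets of Ldhb, 1 of Tpi1 and the dim one of Pfkp. Over all probe sets tested the share at that threshold was 9.17%.

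The shift of the set as a whole differed from mouse to mouse. The median over the 31 genes, relative to the WT mean, was -0.10 in KO 1, -0.11 in KO 2 and -0.01 in KO 3, against 0.03, 0.03 and -0.05 in WT mice 1, 2 and 3. KO 3 thus lay inside the WT range, with 16 of 31 genes below the WT mean, while 24 were below it in KO 1 and 26 in KO 2. WT 3 had 22 below it and the other WT mice 12 each. Without KO 3 the median difference was -0.11 and 25 of 31 genes were lower.

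**Figure D5:**
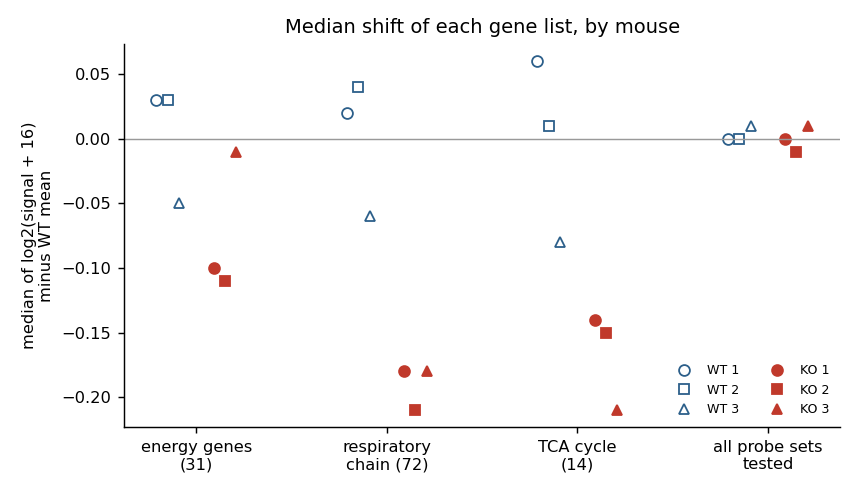
Median of log2(signal + 16) minus the WT mean in each mouse, over the 31 energy genes, 72 respiratory chain genes, 14 TCA cycle genes, and all probe sets tested; open blue symbols are WT, filled red symbols KO. For the energy genes KO 3 lies at -0.01, between the WT mice, whereas for the respiratory chain all KO mice lie between -0.21 and -0.18.

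The mitochondrial genes that take over from glycolysis were set beside it on the same arrays. Over 72 genes of complexes I to V, 71 were lower, the median was -0.19, and the KO mice stood at -0.18, -0.21 and -0.18, below all WT mice. In these genes 0 of 72 passed and 44 had an unadjusted p under 0.05, all lower, against 4 lower of 29 in the energy genes. Over all probe sets tested 5.06% were lower at that threshold. Uqcrh, a bc1 complex subunit, and Atp5pb, of ATP synthase, gave -0.29 each. Under quantile normalization Uqcrh passed, with an adjusted p that rounds to 0.05 (0.087 as reported here). The TCA cycle had 13 of 14 genes lower and a median of -0.21, with citrate synthase, Cs, at -0.31 and Idh3b at -0.22 and none passing. In KO 3 this list stood at -0.21, where the energy genes stood at -0.01. The difference between the lists was not tested.

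Genes that decide whether pyruvate is burned were led by Pdk4, a kinase that switches off pyruvate dehydrogenase and a known target of PGC-1alpha with estrogen-related receptors. Pdk4 read 67.2, 71.9 and 98.8 in KO and 141, 185 and 148 in WT, and it fell by 0.87 on the log2 scale (SE 0.16, adjusted p = 0.039). It was the only one of the 16 genes of pyruvate entry that passed, and 12 of the 16 were lower. At an unadjusted p under 0.05 in limma 5 were lower and 1 higher, where the background was 5.06% and 4.11%. The Pdk4 pass did not hold when any single mouse other than KO 3 was left out (adjusted p from 0.065 to 0.17), when dim probe sets stayed in (0.13), when the trend of variance with intensity was dropped (0.22) or with the replicate number as a block (0.063).

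Among 13 tested genes of other glucose and monocarboxylate transporters, 1 passed, lower in KO, and 9 were lower in all. This was Slc2a5, the fructose transporter that marks microglia in brain, at 11.5, 27.1 and 3.5 in KO and 58.3, 85.9 and 84.3 in WT (difference -1.68, SE 0.28, adjusted p = 0.022). Its KO mean lay below the filter signal, which the probe set cleared through the WT mice, and its size follows the offset, with -2.71 at an offset of 1 and -0.85 at 64. The pass did not hold when KO 1, KO 3, WT 2 or WT 3 was left out (adjusted p from 0.054 to 0.11), at an offset of 1 (0.071), when dim probe sets stayed in (0.11) or when the trend of variance with intensity was dropped (0.17). Of 9 microglia markers 3 were lower and 6 higher, with a median difference of 0.07 and summed signals of 3748 to 4178 in KO and 3547 to 4124 in WT. Csf1r made the largest part of these sums, with means of 1848 in KO and 1758 in WT. Single markers ran from -0.64 for Aif1 (limma adjusted p = 0.34) to 0.35 for C1qc (0.42), both with overlapping groups. The part of microglia in the Slc2a5 difference was not tested.

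In the remaining lists of neighbouring pathways no gene passed in either direction. Of 12 tested genes of creatine and adenylate energy transfer 10 were lower, led by the adenine nucleotide translocases Slc25a4, at 4282 ± 147 in KO against 5077 ± 73.6 in WT (SD, n = 3; a difference of -0.25, adjusted p = 0.15), and Slc25a5 (-0.24, adjusted p = 0.24). At an unadjusted p under 0.05 in limma 5 of those 12 were lower and 1 higher, where the background was 5.06% and 4.11%. Of 20 tested genes of glycogen metabolism 10 were lower and 10 higher, with 4 lower and 0 higher at that threshold. The smallest p there belonged to Pgm1, a phosphoglucomutase that links glycogen to glycolysis, at 262 ± 16.7 in KO against 326 ± 4.99 in WT (SD, n = 3; a difference of -0.30, adjusted p = 0.29), and to Ppp1r3c, a glycogen-targeting subunit of protein phosphatase (-0.21, adjusted p = 0.45).

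Other glycolytic enzymes and isoforms were split evenly, 6 lower and 6 higher of 12 tested, with Tigar at -0.52 (adjusted p = 0.47) and Ldhd at 0.28 (0.74). Tigar was -0.27 without KO 2, and Ldhd was 0.14 without WT 3 and 0.49 without WT 2. In the pentose phosphate pathway, which branches off glycolysis to make NADPH, 6 of 8 were lower, with Tkt at -0.24 (adjusted p = 0.45) and Pgls at -0.31 (0.55). Genes of the hypoxia response, many of them driven through the element shown above, were lower in 7 and higher in 10 of 17 tested. Of these 3 were higher at an unadjusted p under 0.05 in limma, where the background was 4.11%. Bnip3, a mitophagy receptor, read 1197, 1236 and 1251 in KO and 1124, 1027 and 983 in WT (difference 0.23, adjusted p = 0.32), and Egln1, an oxygen-sensing prolyl hydroxylase, differed by 0.28 (adjusted p = 0.35). KO mice lay above WT mice for both. Of 15 genes of AMPK and other glucose regulators 4 were lower and 11 higher, with Prkaa2 at -0.19 (adjusted p = 0.65) and Mlxipl at 0.45 (0.73). Mlxipl was dim and turned on WT 1, at 4.8 against 33.4 and 35.6 in the other WT mice, and without WT 1 its difference was 0.03.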

How the data were processed

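Striatal RNA of 3 KO and 3 WT mice was measured on 1 Affymetrix mouse array per mouse, and groups and replicate numbers were taken from the sample titles. The authors deposited intensity values on a linear scale, computed by MAS5 according to the notes on processing (per the submitters' processing notes). Which version and target value applied was not given in the sources used here. These deposited values were already scaled, with a mean of 150.0 on every array once the lowest and highest 2% were left out, so a change is measured against the array's other probe sets. The number of arrays limits the precision.

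Of 45101 probe sets, 34958 had 1 gene symbol in the platform annotation, 932 had several and 9211 had none; 34754 of the first matched the GRCm38.p6 gene table, which gave current names. Differences of log2(signal + 16) were fitted in limma 3.58.1 (R 4.3.3) with lmFit and eBayes, letting the prior variance follow intensity. The 64 control probe sets stayed out, as did probe sets whose mean did not exceed the 40th percentile, a signal of about 26.8. P-values were adjusted by Benjamini-Hochberg over 27022 probe sets, with a threshold of 0.05. Single values and isoform pairs had two-sided exact permutation tests over mice, which cannot go below 0.1. The procedure was tested on simulated data.

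All members with a signal are named by 1 probe set, and their other probe sets are given by their differences. In each pathway list the genes that passed are named or, without any, the 2 with the smallest p. Mag, Ttr, Pvalb, S100b, Slc4a4, the other choroid plexus markers, Csf1r, Aif1 and C1qc were named after their values were seen. Members, lists and tests were chosen with earlier results of these data known. Lists are described by counts and medians, with no set test. The alternatives were 2 normalizations, 2 offsets, 2 filters, 2 variance models, the replicate block, averaging the probe sets of a gene, and leaving out each array.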

Additional observations from a re-analysis of the deposited data

How the results depend on the processing

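Gys1 without KO 1 was the only pass of a member under any alternative, so with 1 array left out in turn 0 to 1 members passed. Gys1 itself was not tested with the filter at the 60th percentile or with averaged probe sets, and its adjusted p ran from 0.0092 to 0.28. Over all alternatives 19 to 25 members were lower in KO (19 with the filter at the 60th percentile, which leaves fewer members, and with averaged probe sets), and their median difference ran from -0.11 (without KO 3) to -0.04 (arrays centred on their median). Of all probe sets, 127 passed, against 52 with no filter, 25 when the intensity trend was dropped, and 65 to 102 with 1 array left out, the lowest being 65 without KO 1, 70 without WT 2 and 73 without KO 2. The sample titles give same-numbered mice no link but the number, and their deviations correlated at -0.009, -0.035 and 0.017. With the replicate block 100 passed, with 0 members among them, and of the calls of Ppargc1a, Slc2a5 and Pdk4 the block ended that of Pdk4. That of Ttr was run at the reported setting only. Isoform pairs with separate groups, 1 of 11, numbered 0 at an offset of 1, 2 with averaged probe sets, 2 under the replicate block, where all 3 same-numbered differences had to share a sign, and 1 to 3 with 1 array left out.

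The sign held under every alternative run for 18 of the 29 tested members, 15 lower and 3 higher. The other 11 turned in 21 of 460 comparisons. With arrays centred on their median Pfkp became 0.01 and Slc6a8 0.0054, and at an offset of 64 Hk2 became -0.0013. With averaged probe sets Pfkl became 0.03, Pfkp 0.10, Slc2a3 0.0042 and Gpd1 -0.14. With 1 array left out, Hk2 ran from -0.12 (without WT 2) to 0.10, and was -0.05 without KO 2 and -0.02 without KO 3. Gatm ran from -0.05 (without KO 2) to 0.11, and was -0.02 without WT 2. Aldoc ran from -0.05 (without KO 3) to 0.05, and was -0.02 without WT 1. Pfkl ran from -0.13 (without KO 3) to 0.03 (without WT 2), and was 0.0027 without KO 2. Pfkp ran from -0.07 to 0.02 (without WT 2), Gpd1 from -0.01 (without KO 3) to 0.22, Aldoa from -0.13 to 0.0012 (without WT 1), Ckb from -0.07 (without WT 3) to 0.13 and Pygm from -0.27 to 0.03 (without WT 3). The cause of these turns was not tested. Signal over background limits Slc16a3, Gys1, Slc16a7 and Hk2 most, and 3 mice a group limit all members.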
